A study of Mus musculus with 7 samples.

Results

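Autotaxin, lysophosphatidic acid (LPA) receptors and genes of the lipid phosphatase family were examined in C2C12 myotubes with and without electrical pulse stimulation (EPS). The set held 10 genes, Enpp2, Enpp1, Lpar1, Lpar2, Lpar4, Lpar6, Ppap2a, Ppap2b, Ppap2c and Ppapdc3. They were found by their symbols in the deposited gene table, and all 10 were present among the 26607 genes listed. Ppap2a, Ppap2b, Ppap2c and Ppapdc3 are older symbols of Plpp1, Plpp3, Plpp2 and Plpp7, and the symbols of the files are used here. The set was selected on the EPS-control contrast of the same 7 libraries, in that Enpp2 and Ppapdc3 were already known to be among the genes counted as changed by EPS. Therefore, every member's difference between the groups is a description, and where a member is said to be counted, that gives its place in a fit over all genes and is no independent test of it.

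C2C12 is a mouse myoblast line that fuses into myotubes when serum is reduced. Control libraries (n = 3, replicates 1, 3 and 4) came from myotubes with no treatment. EPS libraries (n = 4, replicates 1 to 4) came from myotubes given electrical pulse stimulation at 1 Hz for 24 h, begun 3 days into differentiation and followed by 1 h of rest. All libraries share 1 cell line, no nerve or other tissue is present in the cultures, and nothing in the labels says whether the replicates were separate cultures, so the errors below measure the spread between these libraries only. Poly(A) RNA was sequenced as paired reads of 100 bp, and the values deposited by the authors are CPM, in which a gene's reads are divided by the library total and scaled up.

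LPA is a small signalling lipid. Autotaxin, the secreted product of Enpp2, makes it outside the cell by removing choline from lysophosphatidylcholine, and G protein-coupled receptors at the cell surface bind it. The LPA-removing phosphatases are integral membrane enzymes whose active site faces outward and which strip the phosphate from LPA and from related lipids such as sphingosine 1-phosphate (S1P). In muscle and other tissues the level of LPA signalling therefore depends on a secreted enzyme, a set of receptors and a set of phosphatases, and transcripts of all of these can be read in the same library.

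Of the 10 genes, Enpp2 was higher in every EPS library than in any control library and Ppapdc3 was lower in every EPS library than in any control library. The dominant receptor, Lpar1, and the dominant phosphatase, Ppap2a, had overlapping groups. Across all members the median log2 fold change was -0.079, beside 0.041 over the 19144 genes tested, with 4 members positive and 6 negative. Fold changes are EPS minus control on the log2(CPM + 1) scale from limma, which understates the change of low genes.

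**Figure D1:**
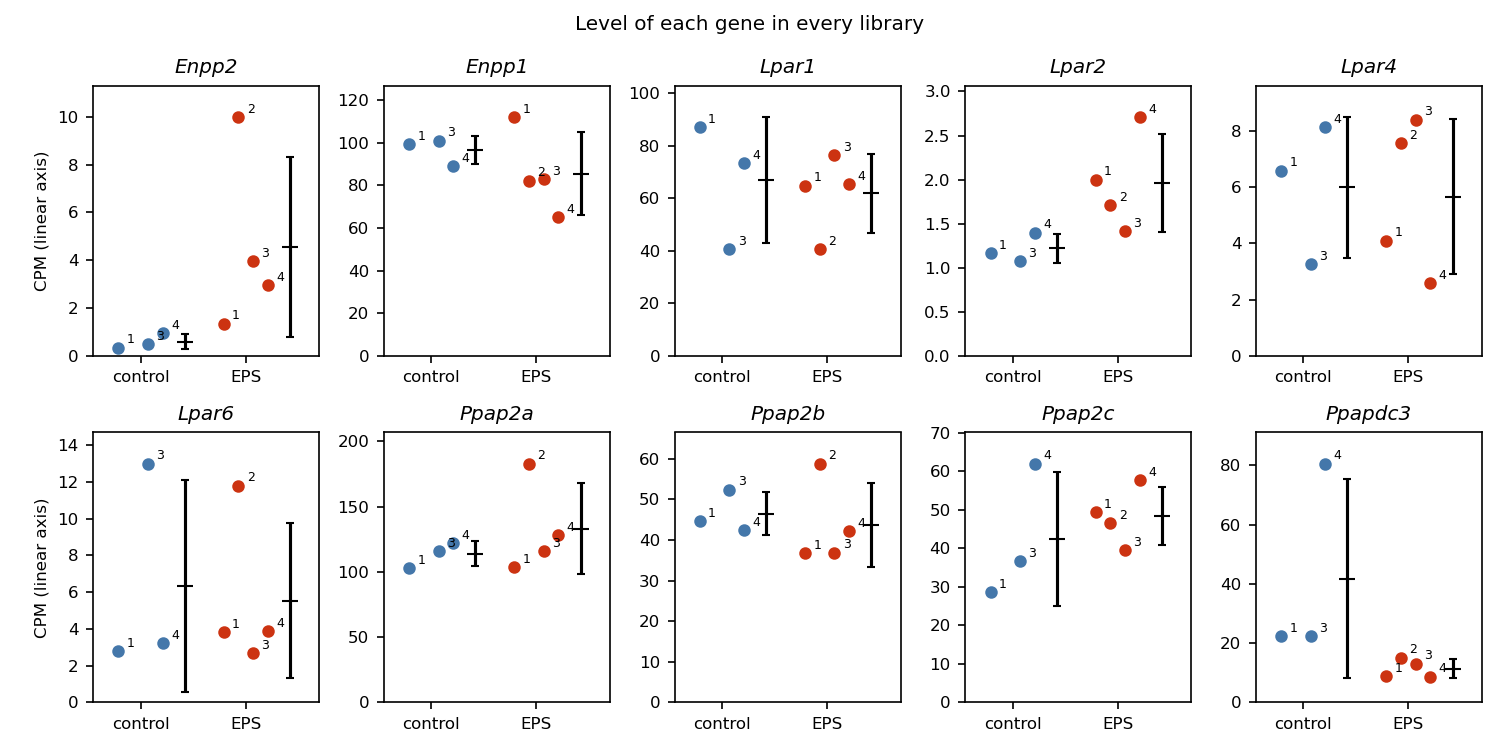
CPM of the 10 genes in each library on linear axes that start at 0, with control libraries in blue, EPS libraries in red, replicate numbers beside the points, and the mean with its SD as black bars. Only Enpp2, Lpar2 and Ppapdc3 have groups that do not overlap, and single libraries carry much of the spread in Lpar6 (control replicate 3 and EPS replicate 2) and Ppapdc3 (control replicate 4).

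Depth was between 16616917 and 22120641 reads per library, and 3 reads, taken as the floor, corresponded to 0.136 to 0.181 CPM. Only counting error enters this floor, as the reads carry no molecular identifiers. Control replicate 4 stood apart: 14014 genes were above 0 in it, against 16144 to 16984 in the others, and several values that rest on it are also given without it. Genes with 1 to 5 reads numbered 359 in it, against 2670 to 3181 in the others. Low counts were thus nearly missing there, and its zeros and the floor may not mean what they mean in other libraries. A difference was counted where the two-sided P of limma, not adjusted, was under 0.01 and the change exceeded 2-fold. By this rule 269 of the 19144 tested genes were counted, or 1.41%, of which 185 were higher (0.966%) and 84 lower (0.439%). A Benjamini-Hochberg adjusted p under 0.05 was reached by 27 genes, or 0.141%. Of the counted genes 68.8% were higher, but quantile normalization lowered this share to 51.6% and median-of-ratios scaling to 52.8%. Among genes averaging at least 1 CPM, the median log2 fold change went from 0.10 to 0.0052 and -0.0048 under these scalings, and neither turned the sign of Enpp2 or Ppapdc3.

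The labelled cell type was checked against marker lists. Myotube markers summed to between 14509 and 22604 CPM in the 7 libraries, and 0 of 10 were counted as changed. Of their log2 fold changes 9 of 10 were negative, with a median of -0.45. Actn2 was lower in every EPS library (30.4 to 48.1 CPM) than in any control library (48.8 to 99.4 CPM). Its log2 fold change of -0.99 (limma P 0.00405) was just short of 2-fold. Myoblast markers summed to 787, 726 and 848 CPM in control and to 629, 633, 649 and 499 CPM in EPS libraries, so the groups did not overlap, as they did not for Myod1 and Cdh15 by themselves, although 0 of the 7 tested were counted. Cycling cell markers summed to 397, 369 and 285 CPM in control replicates 1, 3 and 4 and to 954, 431, 638 and 1268 CPM in EPS replicates 1 to 4, with 8 of 8 positive and 1, Cenpf, counted. Fibroblast markers summed to 207, 300 and 184 CPM in control and to 213, 477, 235 and 270 CPM in EPS libraries, with 5 of 8 log2 fold changes positive and a median of 0.0077. Of these markers Ly6a was counted as higher (1.08), Pdgfra (0.70, groups not overlapping) and Mfap5 (0.43) were positive and not counted, Dcn (-0.89), Lum (-0.89) and Pi16 (-0.38) were negative and not counted, and Thy1 and Col15a1 were at or near 0. Adipocyte markers, of interest because fat is a known source of autotaxin, summed to 4.84 to 6.5 CPM in control and 5.98 to 12.7 CPM in EPS libraries. Nearly all of this was Pparg, at 4.25 to 6.32 CPM in control and 5.71 to 12.6 CPM in EPS libraries, which was not counted. Plin1, Cidec, Lep and Retn had 0 reads in every library, and Adipoq had at most 1 read. Endothelial markers summed to 1.01 to 3.3 CPM and macrophage markers to 1.08 to 2.92 CPM, with Emr1 at 0. The part of cycling cells, myoblasts and fibroblasts in the values below was not tested, and in RNA from whole cultures fewer cells of a type and less RNA per cell cannot be told apart.

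Enpp2 encodes autotaxin and lies on chromosome 15 of GRCm38 from 54838901 to 54952892, on the minus strand (ENSMUSG00000022425.16). Its level was 0.35, 0.481 and 0.949 CPM in control replicates 1, 3 and 4, which rested on 6, 8 and 21 reads. In EPS replicates 1 to 4 it was 1.35, 9.99, 3.97 and 2.97 CPM, from 29, 205, 87 and 56 reads. The groups did not overlap, although control replicate 4 and EPS replicate 1 were close, and EPS replicate 2 was far above the rest. The mean was 0.594 ± 0.315 CPM (SD, n = 3) in control and 4.57 ± 3.77 CPM (SD, n = 4) in EPS libraries, a ratio of 7.7. EPS replicate 2, at 9.99 CPM, raised this EPS mean and the ratio. On the log2(CPM + 1) scale the difference was 1.59 (SE 0.46, 95% interval 0.56 to 2.63). The highest EPS library was 7.4-fold above the lowest, the widest spread of any member within the EPS group. Without EPS replicate 2 the log2 difference was 1.19, without EPS replicate 1 it was 1.93, and without control replicate 4 it was 1.75. A transcribed neighbour, Gm26684, shares 345 exon bases with Enpp2 on the opposite strand. The libraries were made with a directional kit, which keeps the strand, but whether the counting used it is not given in the sources used here.

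EPS replicate 2, the library with the highest Enpp2, also had the highest summed fibroblast markers (477 CPM). Within the EPS group, replicate 1 was lowest in both, at 213 CPM of the markers and 1.35 CPM of Enpp2, while replicates 3 and 4 had 235 and 270 CPM of the markers and 3.97 and 2.97 CPM of Enpp2. Control replicate 3 had 300 CPM of the markers and 0.481 CPM of Enpp2. The part of fibroblasts in the Enpp2 values was not tested. Among the 12256 genes with a mean of at least 1 CPM, the 5 whose log2(CPM + 1) followed Enpp2 most closely over the 7 libraries were Ptpdc1 (Pearson r 0.99), Fgfr3, Mdp1, Cyp4f13 and 2610306M01Rik (0.98 each). Without the 2 libraries farthest from the median of Enpp2, EPS replicates 2 and 3, these correlations were between 0.92 and 1.00. The 7 points share the division into control and EPS libraries, so the likeness is a description.

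Enpp1, the other ENPP member of the set, makes pyrophosphate from extracellular ATP and is better known for its part in mineralization than in LPA. It lies on chromosome 10 from 24637914 to 24712159, on the minus strand. Its level was 99.5, 101 and 89.1 CPM in control replicates 1, 3 and 4 and 112, 82.2, 82.8 and 65.1 CPM in EPS replicates 1 to 4. The groups overlapped, with the highest and the lowest value both in the EPS group. Its log2 difference was -0.20 (SE 0.19, 95% interval -0.62 to 0.23).

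The other ENPP genes show where the family stood. Enpp3 was at 12.2, 11.1 and 9.9 CPM in control replicates 1, 3 and 4 and at 13.5, 18, 13.8 and 13.6 CPM in EPS replicates 1 to 4. Its groups did not overlap, yet its log2 difference of 0.38 (SE 0.20) was not counted. Enpp4 (0.14, SE 0.16) and Enpp5 (0.45, SE 0.30) had overlapping groups. Enpp6 had at most 4 reads in any library and Enpp7 had 0 reads in all 7. Of the 6 ENPP genes tested, 1 was counted as higher and 0 as lower, and that 1 was Enpp2.

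Receptors of the EDG group, Lpar1 and Lpar2, and of the P2Y-like group, Lpar4 and Lpar6, were both present. Levels were compared between receptors per kilobase of exon (CPM per kb), using exon lengths of the GENCODE M21 annotation. The mean over the 7 libraries was 14.9 CPM per kb for Lpar1, 1.37 for Lpar4, 1.09 for Lpar6, 0.644 for Lpar3 and 0.281 for Lpar2. Lpar5 had 0 reads in every library. Lpar1 was above Lpar4 in 7 of 7 libraries, and Lpar3 was above Lpar2 in 7 of 7. Lpar4 exceeded Lpar6 in 4 of 7 libraries and Lpar6 exceeded Lpar3 in 4 of 7, so these neighbours could not be put in order. All receptors together summed to 19.1 ± 5.14 CPM per kb (SD, n = 3) in control and 17.8 ± 2.67 CPM per kb (SD, n = 4) in EPS libraries.

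**Figure D2:**
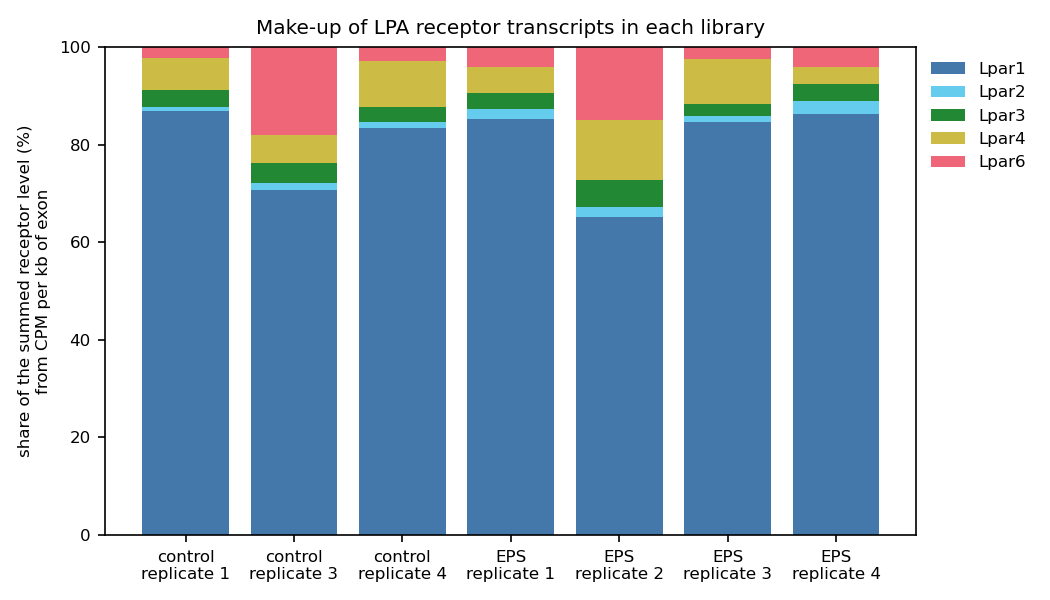
Share of each LPA receptor in the summed receptor level of each library, in percent, from CPM per kb of exon. Lpar1 fills 83.4% or more of 5 libraries, and in control replicate 3 and EPS replicate 2 its share is 70.7% and 65.2% while that of Lpar6 is 18% and 15%.

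Lpar1 encodes the receptor that was the first of the family to be described and couples to several G proteins. It lies on chromosome 4 from 58435255 to 58553898, on the minus strand. Its level was 87.2, 40.6 and 73.4 CPM in control replicates 1, 3 and 4 and 64.9, 40.7, 76.6 and 65.5 CPM in EPS replicates 1 to 4. Control replicate 3 and EPS replicate 2 were low and nearly equal, and the other libraries of both groups were mixed in order. The means were 67.1 ± 23.9 CPM (SD, n = 3) and 61.9 ± 15.1 CPM (SD, n = 4), and the log2 difference was -0.081 (SE 0.29, 95% interval -0.75 to 0.59). That interval leaves room for a change of either sign.

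Lpar6 encodes a receptor known for its part in hair growth. It lies on chromosome 14 from 73237895 to 73243294, on the plus strand, inside the Rb1 gene on the opposite strand, with which it shares 408 exon bases. Its level was 2.8, 13 and 3.25 CPM in control replicates 1, 3 and 4, from 48, 216 and 72 reads. In EPS replicates 1 to 4 it was 3.82, 11.8, 2.69 and 3.88 CPM, from 82, 242, 59 and 73 reads. Control replicate 3 and EPS replicate 2, where Lpar1 was lowest, had the highest Lpar6, and the remaining 5 libraries lay between 2.69 and 3.88 CPM. Its log2 difference was -0.078 (SE 0.56, 95% interval -1.35 to 1.19), the widest interval of any member. Without control replicate 3 it was 0.52 and without EPS replicate 2 it was -0.46, so its sign rested on single libraries.

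The same 2 libraries were highest for Rb1, at 177 and 171 CPM, while the other libraries held 93.4 to 143 CPM. They also had the highest values of a base-composition measure, the median log2 deviation of genes in the lowest GC quartile minus that of genes in the highest. Control replicates 1, 3 and 4 had values of -0.037, 0.31 and -0.44, and EPS replicates 1 to 4 had 0.0034, 0.21, -0.08 and 0.049. Lpar6 transcripts have a GC content of 36.4% and Lpar1 transcripts 46.1%. Lpar4, at 33.7% GC, was at 3.25 CPM in control replicate 3 and 7.55 CPM in EPS replicate 2, and thus was not high in both. The part of base composition, and of reads from Rb1, in the Lpar6 values was not tested.

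**Figure D3:**
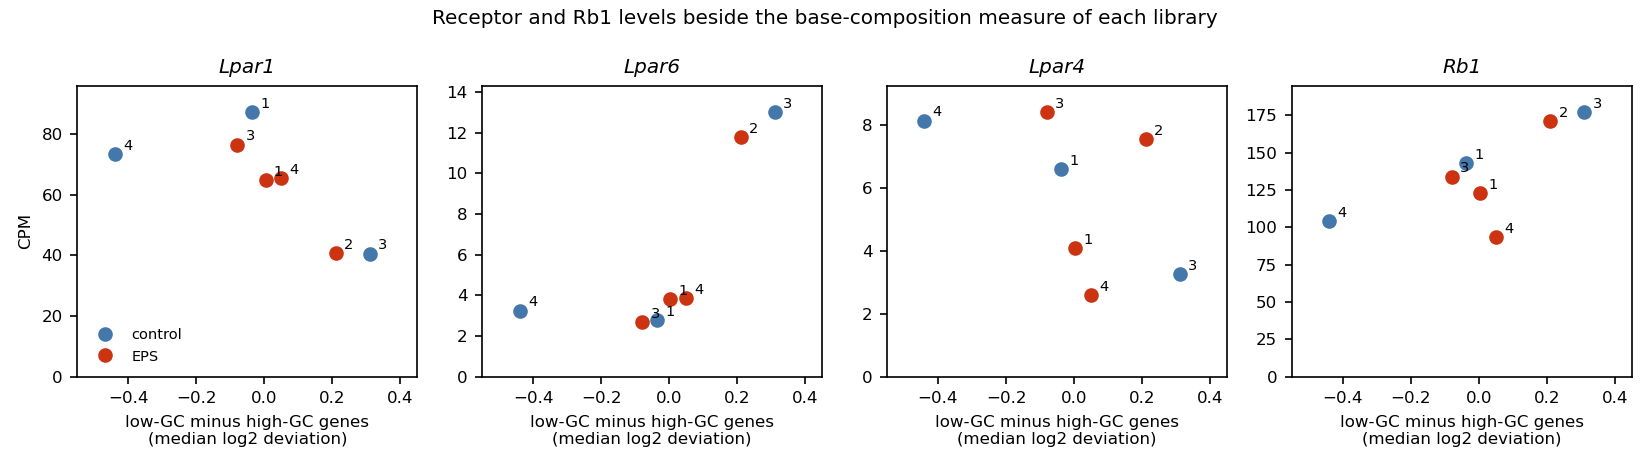
CPM of Lpar1, Lpar6, Lpar4 and Rb1 (linear axes from 0) against the base-composition measure of each library, with control libraries in blue, EPS libraries in red and replicate numbers beside the points. Control replicate 3 (0.31) and EPS replicate 2 (0.21) lie at the right in each panel, with the lowest Lpar1 and the highest Lpar6 and Rb1, while Lpar4 is low in the one and high in the other.

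Lpar2 encodes a receptor whose tail binds scaffold proteins. It lies on chromosome 8 from 69822429 to 69831102, on the plus strand. Its level was 1.17, 1.08 and 1.4 CPM in control replicates 1, 3 and 4 and 2, 1.71, 1.42 and 2.71 CPM in EPS replicates 1 to 4. The groups did not overlap, but control replicate 4 and EPS replicate 3 were separated by 1.4 against 1.42 CPM, from 31 reads each. The means were 1.22 ± 0.165 CPM (SD, n = 3) and 1.96 ± 0.555 CPM (SD, n = 4), a ratio of 1.61. Its log2 difference of 0.40 (SE 0.19, 95% interval -0.034 to 0.83) was not counted.

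Lpar4, on the X chromosome from 106920625 to 106933900, was at 6.59, 3.25 and 8.14 CPM in control replicates 1, 3 and 4 and at 4.1, 7.55, 8.4 and 2.6 CPM in EPS replicates 1 to 4. Both groups spanned the same range, and the log2 difference was -0.10 (SE 0.42, 95% interval -1.05 to 0.84). Lpar3, an EDG receptor outside the set, was between 1.23 and 2 CPM in all libraries, with a log2 difference of -0.046 (SE 0.17). Of the 5 LPA receptors tested, 0 were counted as changed in limma.

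The promoters of 2 receptors are shown because their levels separated the libraries in different ways, Lpar2 by group and Lpar6 by single libraries in both groups. RefSeq (GRCm38.p6) start sites were matched for 8 of the 10 members, all but Enpp2 and Ppap2a, and the 250 bases before each start were searched on both strands for 8 short motifs. Capitals mark the AP-1 motif TGANTCA, the antioxidant response element core TGACNNNGC and the myogenic E-box CAGCTG. The Lpar2 stretch is chr8:69822315-69822428, plus strand, which leaves out the 136 bases nearest the RefSeq start because they fall inside the gene as GENCODE annotates it. The Lpar6 stretch is chr14:73237641-73237890, plus strand.
Lpar2: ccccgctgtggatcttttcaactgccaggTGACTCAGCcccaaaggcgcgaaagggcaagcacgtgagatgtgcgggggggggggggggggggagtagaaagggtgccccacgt
Lpar6: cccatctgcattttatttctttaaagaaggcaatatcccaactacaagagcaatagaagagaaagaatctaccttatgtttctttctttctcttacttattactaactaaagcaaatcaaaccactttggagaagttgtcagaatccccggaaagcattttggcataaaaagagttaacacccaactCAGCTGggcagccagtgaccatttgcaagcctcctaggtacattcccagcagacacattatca

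In Lpar2 the capitals are 1 run in which an AP-1 motif and an antioxidant response element core overlap, starting at -221 from the RefSeq start. Of the 32851 RefSeq promoters of this length, 6.75% held an AP-1 motif and 10.2% the antioxidant core. In Lpar6 the capitals are a myogenic E-box from -63 to -58, which 13% of the promoters held. The Lpar2 window had a GC content of 64.4% and the Lpar6 window 39.2%, beside a median of 52.4% over all promoters. A match says only that the letters are present in the window.

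Phosphatases that remove LPA were led by Ppap2a. Its mean over the 7 libraries was 71.2 CPM per kb of exon, above Ppap2c (27.7 CPM per kb) in 7 of 7 libraries, and the mean of Ppap2b was 14.2 CPM per kb. The 3 together summed to 90.6, 105 and 120 CPM per kb in control replicates 1, 3 and 4 and to 101, 151, 102 and 121 CPM per kb in EPS replicates 1 to 4. These sums were 105 ± 14.9 (SD, n = 3) and 119 ± 23.5 (SD, n = 4) CPM per kb, so the groups overlapped and differed by less than the spread between EPS libraries. Ppap2a made up 57.7% to 69.1% of the sum in every library.

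Ppap2a, on chromosome 13 from 112800792 to 112867894 (plus strand), encodes a widely expressed phosphatase of the cell surface. Its level was 103, 116 and 122 CPM in control replicates 1, 3 and 4 and 104, 183, 116 and 128 CPM in EPS replicates 1 to 4. EPS replicate 2 was high and the other EPS libraries lay near the control range, and the log2 difference was 0.19 (SE 0.20, 95% interval -0.27 to 0.65). Without EPS replicate 2 it was 0.026. It shares 452 exon bases with Skiv2l2 on the opposite strand, which was at 49.7 to 70.5 CPM and was not highest in EPS replicate 2.

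Ppap2b, on chromosome 4 from 105157347 to 105232764 (plus strand), encodes the phosphatase best known from blood vessels, where it limits LPA signalling. Its level was 44.6, 52.4 and 42.4 CPM in control replicates 1, 3 and 4 and 36.8, 58.8, 36.9 and 42.2 CPM in EPS replicates 1 to 4. Here, too, EPS replicate 2 was the highest library, and the others of the EPS group were at or below the lowest control value. The log2 difference was -0.11 (SE 0.19, 95% interval -0.55 to 0.33).

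Ppap2c, on chromosome 10 from 79526430 to 79533796 (minus strand), encodes the third enzyme of this kind. Its level was 28.7, 36.6 and 62 CPM in control replicates 1, 3 and 4 and 49.5, 46.5, 39.5 and 57.7 CPM in EPS replicates 1 to 4. Control replicate 4 was above all EPS libraries and the other control libraries were below all of them. The log2 difference was 0.24 (SE 0.26, 95% interval -0.34 to 0.83) with control replicate 4 and 0.55 without it.

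Ppapdc3 belongs to the same family by sequence but encodes a protein of the nuclear envelope and endoplasmic reticulum that is abundant in muscle. The study calls its product an inactive phospholipid phosphatase, and it is not counted here among the LPA-removing enzymes. It lies on chromosome 2 from 32095528 to 32110820, on the plus strand (ENSMUSG00000051373.5), and no annotated gene overlaps it. Its promoter is shown because it is the member that was lower in every EPS library. The stretch is chr2:32095278-32095527, plus strand, from RefSeq (GRCm38.p6), and the capitals mark an AP-1 motif, TGANTCA, from -63 to -57. The pair of oligos that follows is the one the study designed for RT-PCR of this gene, shown to place that assay on the gene, with both in coding sequence, the forward in exon 1 (chr2:32096199-32096220) and the reverse in exon 2 (chr2:32109627-32109648) of ENSMUST00000057423.5.
Ppapdc3 promoter: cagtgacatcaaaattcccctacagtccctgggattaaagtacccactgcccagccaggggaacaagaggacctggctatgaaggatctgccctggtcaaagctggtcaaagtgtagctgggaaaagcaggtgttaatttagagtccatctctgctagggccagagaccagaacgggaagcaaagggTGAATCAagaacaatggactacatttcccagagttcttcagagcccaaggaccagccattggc
Ppapdc3 forward oligo: atcctctgcctggtgagaagca
Ppapdc3 reverse oligo: ttctggactccagccactgtca

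The level of Ppapdc3 was 22.4, 22.3 and 80.6 CPM in control replicates 1, 3 and 4, from 384, 371 and 1784 reads. In EPS replicates 1 to 4 it was 8.75, 15.1, 13.1 and 8.71 CPM, from 188, 310, 287 and 164 reads. All EPS libraries were below all control libraries, and control replicate 4 was far above the other control libraries. The mean was 41.8 ± 33.7 CPM (SD, n = 3) in control and 11.4 ± 3.21 CPM (SD, n = 4) in EPS libraries, a ratio of 0.273. Without control replicate 4 the control mean was 22.4 CPM and the ratio 0.511. Its log2 difference was -1.55 (SE 0.44, 95% interval -2.56 to -0.54), and without control replicate 4 it was -0.95 and was no longer counted.

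Control replicate 4 was likewise the highest library for Myog, the transcription factor of muscle differentiation, at 1794 CPM beside 473 and 565 CPM in control replicates 1 and 3 and 278 to 605 CPM in EPS libraries. Ckm, muscle creatine kinase, was at 241 CPM in control replicate 4 and between 77.4 and 124 CPM in the others. Des, the muscle intermediate filament, was also highest there, at 5802 CPM beside 2287 to 3761 CPM in the other libraries. Not every myotube marker was. Ttn was at 4128 CPM in control replicate 4 and at 7569 and 7401 CPM in control replicates 1 and 3, Acta1 was at 2774 CPM beside 3572 and 3280 CPM, and the summed list (21444 CPM) lay between those of the other control libraries (22604 and 19828 CPM). Control replicate 4 also had the lowest base-composition measure (-0.44). Its length measure, the median log2 deviation of the shortest quartile of genes minus that of the longest, was the highest, at 0.36. EPS replicate 2 was next, at 0.32. Ppapdc3 has a transcript GC content of 59.2% and 2078 exon bases. With the GC and length correction its log2 difference was -1.60 and was counted. The part of differentiation, base composition or length in the Ppapdc3 value of control replicate 4 was not tested. The 5 genes most like Ppapdc3 over the 7 libraries were Nctc1 (Pearson r 1.00), Ankrd23 (0.99), Tmem40, Camk2n1 and Fjx1 (0.98 each), and without EPS replicate 4 and control replicate 4, the libraries farthest from its median, these were between 0.91 and 0.98.

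Other genes of the PLPP family had overlapping groups. Ppapdc1b was at 19.4, 39.8 and 32.5 CPM in control replicates 1, 3 and 4 and at 22.6, 38.2, 19.1 and 26.9 CPM in EPS replicates 1 to 4, with a log2 difference of -0.18 (SE 0.30). Ppapdc2 was between 2.86 and 6.55 CPM, with a log2 difference of -0.036 (SE 0.30), and Ppapdc1a had 0 reads in all 7 libraries. Of the 6 PLPP genes tested, 1 was counted as lower and 0 as higher, and that 1 was Ppapdc3.

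**Figure D4:**
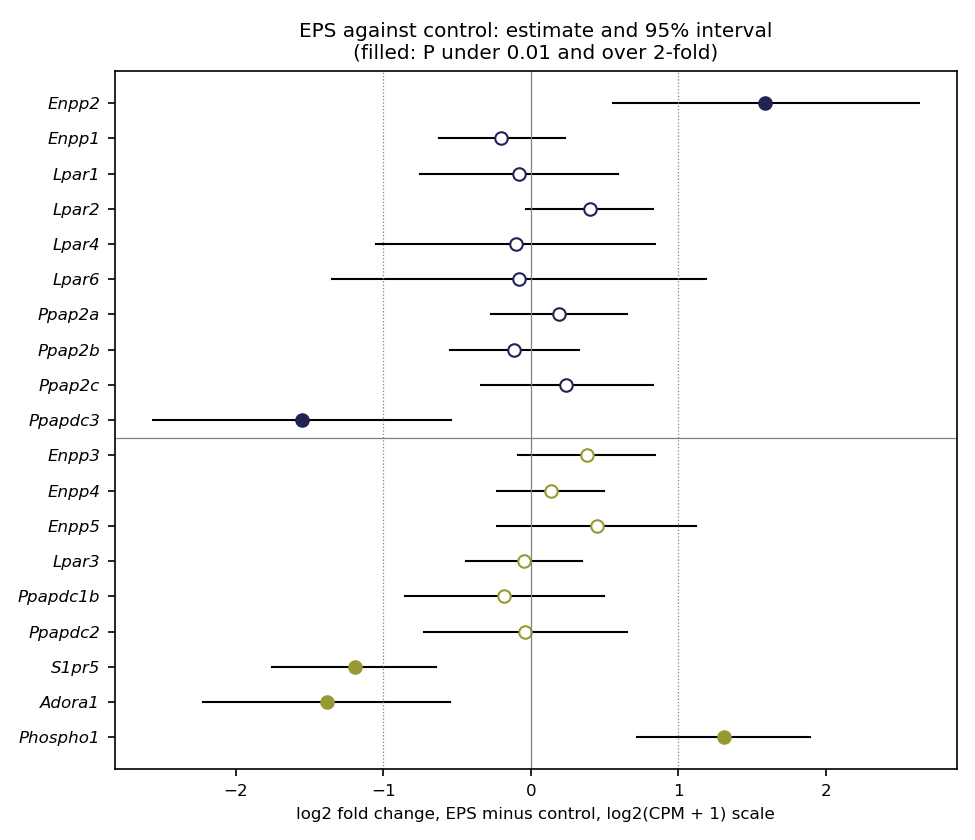
Log2 fold change, EPS minus control, with its 95% interval, of the 10 genes (above the line) and of the other genes named here (below it), on the log2(CPM + 1) scale, with dotted lines at a 2-fold change. Filled points are past P under 0.01 and 2-fold, which among the 10 are Enpp2 (1.59) and Ppapdc3 (-1.55) and among the others S1pr5, Adora1 and Phospho1.

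Counted over the set, 2 of 10 members passed P under 0.01 and 2-fold, 1 in each direction, beside 1.41% of all tested genes, and nothing can be read from that count because the same contrast chose the members. Libraries of the groups did not overlap for 3 of 10 members, 2 above and 1 below, beside 10.6% of all tested genes. Enpp2 and Ppapdc3, chosen on this contrast, are among these 3, so nothing can be read from this count either.

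In order of level per kilobase of exon over all 7 libraries, Ppap2a (71.2 CPM per kb) and Ppap2c (27.7) came first, then Lpar1 (14.9), Ppap2b (14.2), Ppapdc3 (11.8) and Enpp1 (8.8), and after a gap Lpar4 (1.37), Lpar6 (1.09), Enpp2 (0.496) and Lpar2 (0.281). Neighbours kept 1 order in all 7 libraries at only 2 places, Ppap2a above Ppap2c and Enpp1 above Lpar4. The place of Ppapdc3 depended on the group and on control replicate 4. It was at 5.49 CPM per kb in EPS libraries, below Enpp1 (8.34), and at 20.1 CPM per kb in control, above Lpar1 (15.6) and Ppap2b (14.7). Without control replicate 4 its control mean was 10.8 CPM per kb, below Lpar1 (14.9) and Ppap2b (15.4) and above Enpp1 (9.77). Autotaxin was among the least abundant of these transcripts even in EPS libraries, where its mean was 0.791 ± 0.652 CPM per kb (SD, n = 4) beside 0.103 ± 0.0545 CPM per kb (SD, n = 3) in control.

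The wider pathway was followed in lists of enzymes that form or remove LPA, the S1P pathway, the handling of extracellular ATP, pyrophosphate and adenosine, the G proteins and other signalling genes downstream of the receptors, and muscle nuclear envelope proteins. Outside the 10 members the lists hold 99 genes, of which 93 were in the files and 88 were tested. By P under 0.01 and 2-fold, 1 was higher and 2 were lower, or 3 of 88 beside 1.41% of all tested genes, with a median log2 fold change of 0.029 beside 0.041. No gene of the 88 had an adjusted p under 0.05 in the reported limma fit, beside 10 at an unadjusted P under 0.05. By the same measure edgeR gave 3 and DESeq2 5. Limma gave 1, Phospho1, with a pseudocount of 0.1 or a mean of at least 1 CPM. After the GC and length correction it gave 1, S1pr5.

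Among the 14 LPA-removing enzymes, all tested, 0 passed P under 0.01 and 2-fold. Adjusted p-values under 0.05 numbered 0 by limma, edgeR and DESeq2, and unadjusted P under 0.05 in the reported limma fit also numbered 0. Without control replicate 4, Ppap2c and Agpat2 had an unadjusted limma P under 0.05, and without control replicate 1 Agpat1 did. With the replicate block and the GC and length correction Ppap2b did. By P and 2-fold, edgeR and DESeq2 each added Agpat1, an enzyme that acylates LPA, which was at 182 CPM in control replicate 4 and between 48.1 and 54.8 CPM in the other libraries. Its log2 difference in limma was -0.66 with that library and -0.07 without it. The median log2 fold change of this list was -0.009. Of 11 LPA-forming genes tested, Enpp2, chosen on this contrast, was the 1 that passed, and 8 of the 11 differences were positive, beside 63.3% of all tested genes. Groups did not overlap for 3 of the 11, Enpp2, Liph and Gdpd1, all above control, beside 10.6% of all tested genes. Liph had 0 reads in every control library and 2 to 4 in EPS libraries, and passed with a pseudocount of 0.1. Gdpd1 had a log2 difference of 0.51 (SE 0.15, limma P 0.00863), short of 2-fold. The 18 nuclear envelope genes tested included 1 that passed, Ppapdc3.

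S1pr5, an S1P receptor, was the 1 of 12 S1P genes that passed the P and 2-fold rule. It was at 2.27, 2.47 and 4.93 CPM in control replicates 1, 3 and 4 and at 0.559, 1.12, 0.914 and 0.584 CPM in EPS replicates 1 to 4. The mean was 3.22 ± 1.48 CPM (SD, n = 3) in control and 0.794 ± 0.271 CPM (SD, n = 4) in EPS libraries, and it fell by 1.19 on the log2 scale (SE 0.24, limma adjusted p = 0.101). The groups did not overlap, and without control replicate 4 the difference was -0.92 and did not pass.

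Adora1, the adenosine A1 receptor, and Phospho1, a phosphatase that frees phosphate for bone mineral, were the 2 of 15 genes of ATP, pyrophosphate and adenosine that passed. Adora1 was at 6.76, 4.15 and 12.5 CPM in control replicates 1, 3 and 4 and at 1.4, 2.78, 3.06 and 1.59 CPM in EPS replicates 1 to 4. It fell by 1.38 on the log2 scale (SE 0.37, limma adjusted p = 0.19), and by 1.02 without control replicate 4, where it did not pass. It also did not pass without EPS replicate 1 (-1.25), EPS replicate 4 (-1.29) or control replicate 1 (-1.42). Phospho1 was at 6.41, 3.49 and 5.24 CPM in control replicates 1, 3 and 4 and at 15.5, 12.6, 15.5 and 11.4 CPM in EPS replicates 1 to 4. It rose by 1.31 on the log2 scale (SE 0.26, limma adjusted p = 0.0968), and by 1.34 without control replicate 4. In this list 7 of the 15 genes had groups that did not overlap, 4 above and 3 below, beside 10.6% of all tested genes. The same count was 0 of 14 for LPA-removing, 1 of 12 for S1P and 1 of 18 for nuclear envelope genes. Over all pathway lists without the members it was 13 of 88. The 7 of 15 included Entpd1, which had 0 to 3 reads in control and 5 to 7 in EPS libraries. Ank was also among them, with a log2 difference of -0.25 (SE 0.17). Adora2a, another adenosine receptor, was at 1.63, 1.38 and 0.995 CPM in control replicates 1, 3 and 4 and at 0.14, 0.438, 0.548 and 0.106 CPM in EPS replicates 1 to 4, and its log2 difference of -0.84 (SE 0.16, limma adjusted p = 0.0896) was short of 2-fold on this scale. Nt5e, which makes adenosine from AMP, was at 5.71, 10.5 and 5.29 CPM in control replicates 1, 3 and 4 and at 13.6, 26.1, 13.9 and 11.9 CPM in EPS replicates 1 to 4, and its log2 difference of 1.08 (SE 0.33, limma adjusted p = 0.242) had a P of 0.0106. Both passed the P and 2-fold rule with edgeR, DESeq2 and the lower pseudocounts. As with Ppapdc3, control replicate 4 held the highest S1pr5 and Adora1, while Phospho1 in that library lay between the other control values.

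**Figure D5:**
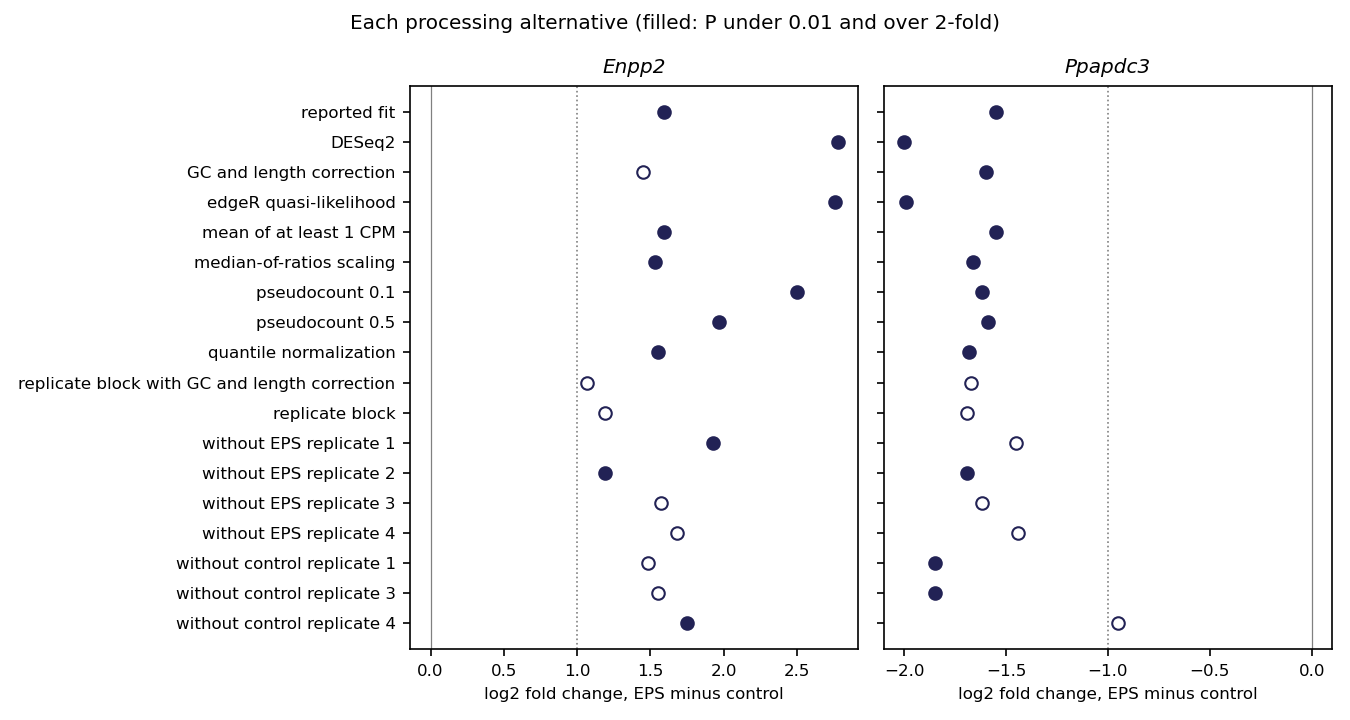
Log2 fold change, EPS minus control, of Enpp2 and Ppapdc3 in the reported fit and in each processing alternative, with points filled where P was under 0.01 and the change over 2-fold, and dotted lines at 2-fold. Enpp2 stays between 1.07 and 2.78 and Ppapdc3 between -2.0 and -0.95, and open points mark the settings in which each falls short of the rule. The scale differs between settings: 2.78 and -2.0 are from DESeq2 on the reads, and 1.07 and -0.95 are on the log2(CPM + 1) scale.

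Both of these members kept their sign in all 18 alternatives, which are described with the processing. Enpp2 was counted in 10 of them and Ppapdc3 in 11. Enpp2 fell short without EPS replicate 3, EPS replicate 4, control replicate 1 or control replicate 3, at 1.57, 1.68, 1.48 and 1.55, which are close to the reported 1.59. Ppapdc3 fell short without EPS replicate 1, EPS replicate 3 or EPS replicate 4, at -1.45, -1.62 and -1.44, close to the reported -1.55, and without control replicate 4, at -0.95. Enpp2 also fell short after the GC and length correction, at 1.45, and both did at a P threshold of 0.001. Among the uncalled members, the log2 difference changed sign in 5 of 17 alternatives for Lpar1, 2 for Lpar4, 4 for Lpar6 and 1 for Ppap2a, and in 0 for Enpp1, Lpar2, Ppap2b and Ppap2c.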

How the data were processed

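RNA-seq of 7 C2C12 libraries (3 control, 4 EPS) was read from 1 table per library. The authors mapped paired reads to GRCm38 with STAR 2.5.4b and deposited CPM per gene symbol, scaled to the total of the 26607 listed genes. The counter, annotation and strand setting are not given in the sources used here. All values were whole multiples of 1 read within 0.01, so whole reads were recovered.

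Groups came from the stimulation stated for each sample and replicate numbers from the titles. In R 4.3.3, limma 3.58.1 with a mean-variance trend was fitted to log2(CPM + 1) of the 19144 genes above 0 in at least 1 library, with no covariate. The thresholds were a P under 0.01, not adjusted, with over 2-fold change, or a Benjamini-Hochberg adjusted p under 0.05. The members and the gene lists were chosen with earlier results of these data known. The counts of 1 list, on signalling downstream of the receptors, are not reported here by themselves. The genes named are the 10 members, their families, other list genes past a rule, and the 5 genes most like Enpp2 and Ppapdc3. Other genes were named after their values were seen where a result touches them.

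Alternatives were pseudocounts of 0.5 and 0.1, a mean of at least 1 CPM, quantile and median-of-ratios scaling, edgeR 4.0.16 and DESeq2 1.42.0 on the reads, the replicate number as a block, a P threshold of 0.001, and each library left out. A correction for GC content and length, alone and with the block, was added after seeing the data. Coordinates, exon lengths and GC content are from GENCODE M21 on GRCm38 (24562 genes matched, 92.3%).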

Additional observations from a re-analysis of the deposited data

Results flagged for a closer look

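Lpar6 was flagged in EPS replicate 2, where its 11.8 CPM stood apart from the other EPS libraries by more than Dixon's 95% critical value for 4 samples allows. The remaining EPS libraries were between 2.69 and 3.88 CPM. Of 13 genes screened in the EPS group 1 was flagged, and chance flags about 1 in 20 groups. The control group, with 3 libraries, was not screened, although control replicate 3 was at 13 CPM.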

How the results depend on the processing

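The number of genes past P under 0.01 and 2-fold, 269 as reported, was 585 with DESeq2, 629 with edgeR, 601 with a pseudocount of 0.1, 106 at a P threshold of 0.001, and 209 to 325 with 1 library left out. Genes with an adjusted p under 0.05, 27 as reported, numbered 497 with DESeq2, 290 with edgeR, 106 with a pseudocount of 0.1, 121 at a mean of at least 1 CPM, 75 after GC and length correction, 17 after quantile normalization, and 0 to 27 with 1 library left out. Of the 10 members, 2 as reported passed P and 2-fold, 1 (Ppapdc3) after GC and length correction, 0 at a P threshold of 0.001, and 0 to 2 with 1 library left out. Members with an adjusted p under 0.05 numbered 0 as reported, with 2 at an unadjusted P under 0.05, and 2 (Enpp2 and Ppapdc3) with DESeq2 or edgeR, on the contrast that chose them. Other pathway genes past P and 2-fold numbered 3 as reported, 6 with DESeq2, edgeR or a pseudocount of 0.1, 5 with a pseudocount of 0.5, and 1 to 4 with 1 library left out, with 1 (Phospho1) remaining without control replicate 4. The cause of these shifts was not tested.

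Deviations from the group means of same-numbered libraries correlated at 0.25, -0.45 and 0.068 for replicates 1, 3 and 4. Each value rests on a single pair of libraries, so whether same-numbered libraries belong together cannot be decided from them. With the replicate number as a block, 161 genes passed P and 2-fold, 0 had an adjusted p under 0.05, and 0 members passed, with Enpp2 at 1.19 and Ppapdc3 at -1.69. With the block and the GC and length correction these counts were 167, 0 and 0, with Enpp2 at 1.07 and Ppapdc3 at -1.67. No control library has replicate number 2, so EPS replicate 2 adds nothing to the differences estimated with the block. Leaving EPS replicate 2 out of the fit without a block also gave 1.19 for Enpp2 and -1.69 for Ppapdc3. Adora1 did not pass P and 2-fold with the block (-1.47) or with the block and the correction (-1.55). The control level of Enpp2 rests on 6 to 21 reads per library.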
